A study of Mus musculus with 12 samples.

Results

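The immunity-related GTPases described here are 4 genes, Irgm1 (ENSMUSG00000046879), Irgm2 (ENSMUSG00000069874), Igtp (ENSMUSG00000078853) and Iigp1 (ENSMUSG00000054072), of the 56941 genes in an mRNA table of mouse embryonic stem cells. Irgm1 was selected on its mRNA values, which were high in cells without Alkbh5. The other 3 were chosen as its relatives, to ask whether they move with it. The mRNA values that chose Irgm1 are therefore given as a description, with no test, and tests are given for the relatives only. Whether the values of the relatives were seen in that choice is not known.

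The cells were E14TG2a, a mouse embryonic stem cell line, grown with LIF and inhibitors of MEK (PD0325901) and GSK3 (CHIR99021). The growth protocol names no interferon. The 3 genotypes were WT, Alkbh5 KO and Alkbh5 del-cIDR, which lacks the C-terminal intrinsically disordered region of the protein. Alkbh5 is an enzyme that removes the methyl mark m6A from RNA. Each genotype had 2 input libraries of polyA RNA, the RNA taken before m6A immunoprecipitation, and these 6 of the 12 samples give the mRNA values. They held 19918177 to 36678609 reads in genes. The labels do not say whether replicates are separate cultures or whether a genotype is 1 clone, so the p-values measure the spread between these libraries, which may be technical. A difference between genotypes cannot be told apart from a difference between clones.

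Immunity-related GTPases are proteins of cell-autonomous defence that interferons induce in mouse cells. Irgm1, Irgm2 and Igtp (also called Irgm3) are the regulatory members: they sit on the membranes of the cell's own organelles and keep the effector members inactive there. Iigp1 (also called Irga6) is an effector, which coats and disrupts the vacuoles of intracellular parasites and bacteria. Interferon-stimulated response elements, with the core GAAANNGAAA, are found in promoters of many interferon-induced genes and are bound by factors of the IRF family.

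The promoters of the 3 regulators are shown because all 3 hold the element GAAANNGAAA close to the start while the mRNA of 1 of them differs from that of the others across genotypes. Each runs from 250 bases before to 50 after the RefSeq start, 5′ to 3′ in the gene's direction, in GRCm38.p6, with matches to GAAANNGAAA in capitals. They lie at chr11:48871371-48871670 (minus strand) for Irgm1, chr11:58214727-58215026 (plus strand) for Irgm2 and chr11:58199306-58199605 (plus strand) for Igtp.
Irgm1: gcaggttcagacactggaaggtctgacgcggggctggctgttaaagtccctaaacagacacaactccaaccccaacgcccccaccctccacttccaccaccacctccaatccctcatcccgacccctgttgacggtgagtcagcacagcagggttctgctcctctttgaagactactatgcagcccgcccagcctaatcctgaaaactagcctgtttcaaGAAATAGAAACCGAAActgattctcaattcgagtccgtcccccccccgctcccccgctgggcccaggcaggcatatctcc
Irgm2: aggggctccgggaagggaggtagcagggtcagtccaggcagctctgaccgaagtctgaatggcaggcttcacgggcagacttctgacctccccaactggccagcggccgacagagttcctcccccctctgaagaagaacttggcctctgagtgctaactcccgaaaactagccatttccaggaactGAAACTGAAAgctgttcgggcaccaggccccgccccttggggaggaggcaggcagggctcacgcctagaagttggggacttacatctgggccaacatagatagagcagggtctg
Igtp: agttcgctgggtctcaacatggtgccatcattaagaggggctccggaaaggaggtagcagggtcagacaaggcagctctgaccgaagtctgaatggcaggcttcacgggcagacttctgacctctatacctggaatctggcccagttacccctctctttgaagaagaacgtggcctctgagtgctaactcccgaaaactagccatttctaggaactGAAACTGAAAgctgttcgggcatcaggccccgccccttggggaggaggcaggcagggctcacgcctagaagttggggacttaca
Irgm1 has 2 overlapping matches, GAAATAGAAA from 30 to 21 and GAAACCGAAA from 24 to 15 bases before the start. Irgm2 and Igtp each have 1, GAAACTGAAA, from 64 to 55 and from 34 to 25 bases before the start. On either strand, 3.44% of the 32851 promoters of this length in the table hold the element. The promoters of Irgm2 and Igtp were 92.1% identical over 265 aligned bases, and the longest run of letters found in all 3 promoters was gaaaactagcc, 11 bases, which ends 8 to 13 bases ahead of the capitals. A match is a run of letters and not a measured binding site. The promoter of Iigp1 was not examined, so whether the effector also holds the element is not known here.

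Irgm1 mRNA was high in both KO libraries and low in the other 4. It had 164 and 155 reads in the KO libraries, 4 and 16 in the WT libraries, and 2 and 5 in those of del-cIDR. Per 1000000 reads in genes (RPM), its level was 4.47 and 4.69 without Alkbh5, 0.159 and 0.470 in WT cells, and 0.0646 and 0.251 in del-cIDR cells. The KO libraries lay far above all others, while those of WT and del-cIDR overlapped. In RNA of whole cultures, more cells with Irgm1 mRNA and more of it per cell cannot be told apart. The exact Poisson 95% intervals, which cover counting error only, ran from 3.81 to 5.50 RPM over the KO libraries and from 0.00782 to 0.763 over the other 4.

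The mean level of Irgm1 was 4.58 ± 0.16 RPM in KO, 0.315 ± 0.220 in WT and 0.158 ± 0.132 in del-cIDR (SD, n = 2 each). Its KO mean was 14.6 times its WT mean and 29.0 times its del-cIDR mean. The WT mean rests on 20 reads and the del-cIDR mean on 7, so these folds are imprecise. With WT replicate 2 left out, the ratio to WT was 28.8, and with WT replicate 1 left out it was 9.75. Leaving out 1 library of del-cIDR gave a ratio to that genotype of 18.3 (replicate 1 left out) or 71.0 (replicate 2 left out). The 71.0 rests on 2 reads in del-cIDR replicate 1, and the 28.8 on 4 reads in WT replicate 1. In differences of log2(RPM + 0.1), Irgm1 stood at 3.61 for KO against WT, the highest of the 22289 genes tested. It stood at -4.28 for del-cIDR against KO, the lowest, and at -0.68 for del-cIDR against WT. Both places depend on the scale. In KO against WT, 46 genes had a larger increase than Irgm1 with edgeR on the same reads, 48 with DESeq2 and 36 with the deposited scaling. In del-cIDR against KO, Irgm1 ranked 57 from the lowest with edgeR, 32 with DESeq2, 6 with the deposited scaling and 4 with a pseudocount of 0.5 RPM. The fit on the deposited scaling had its own filter on low values, and its places are among 29059 genes. The 3 comparisons share libraries and are not independent of each other.

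**Figure D1:**
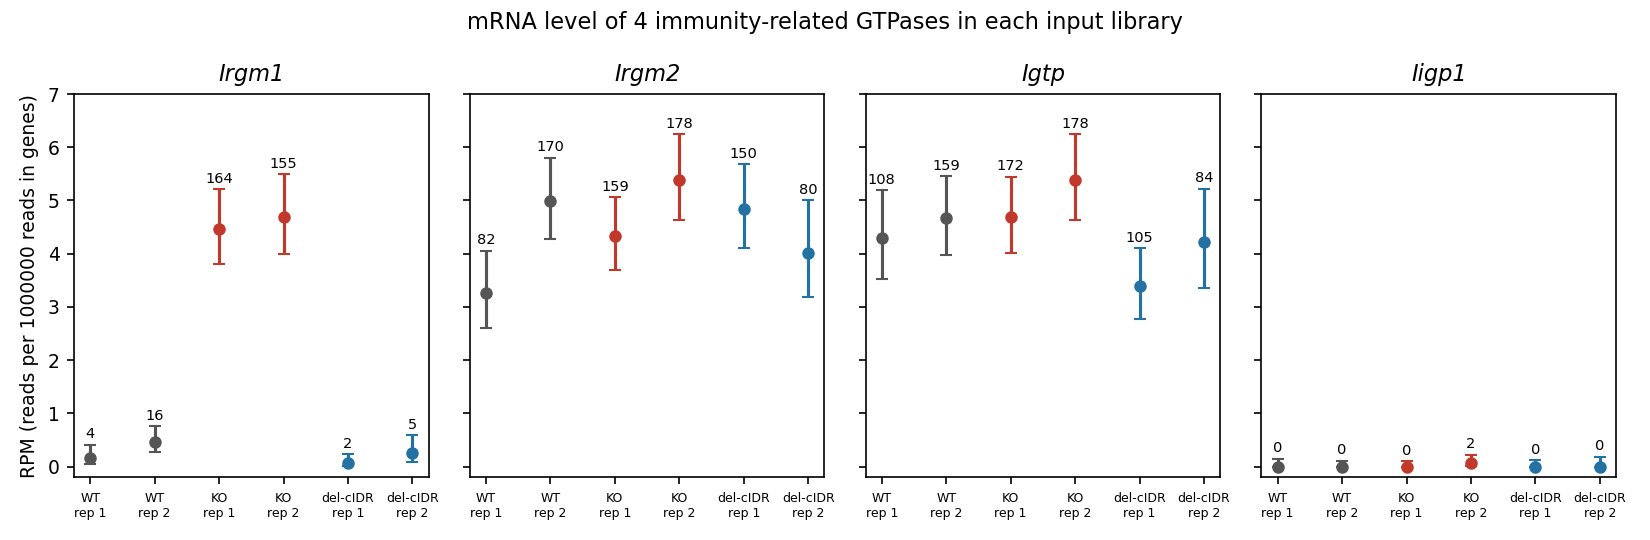
Level of each gene in each input library, in reads per 1000000 reads in genes (RPM), for WT (grey), KO (red) and del-cIDR (blue). Points are single libraries, bars are exact Poisson 95% intervals and the number above each is its reads. Irgm1 is at 4.47 and 4.69 in KO and at most 0.470 elsewhere, Irgm2 and Igtp lie between 3.27 and 5.39 in all libraries, and Iigp1 has reads in 1 library.

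Irgm2, which was read in every library, showed no such pattern. It had 82 and 170 reads in the WT libraries, 159 and 178 in the KO libraries, and 150 and 80 in those of del-cIDR. The level was 3.27 and 4.99 RPM in WT cells, 4.33 and 5.39 without Alkbh5, and 4.84 and 4.02 in del-cIDR cells. The 3 genotypes overlapped, and the lowest and the next to highest library were both WT. The means were 4.13 ± 1.22 RPM in WT, 4.86 ± 0.75 in KO and 4.43 ± 0.58 in del-cIDR (SD, n = 2 each).

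Igtp lay between 3.39 and 5.39 RPM in all 6 libraries. It had 108 and 159 reads in the WT libraries, 172 and 178 in the KO libraries, and 105 and 84 in those of del-cIDR. The level was 4.30 and 4.67 RPM in WT cells, 4.69 and 5.39 without Alkbh5, and 3.39 and 4.22 in del-cIDR cells. Both KO libraries lay above both WT libraries and both del-cIDR libraries below them, by narrow margins. Libraries of KO and WT did not overlap at 60.1% of all genes tested, nor did those of del-cIDR and WT at 47.2% or of del-cIDR and KO at 63.4%, so a gap of this kind is common. The means were 4.49 ± 0.26 RPM in WT, 5.04 ± 0.50 in KO and 3.80 ± 0.59 in del-cIDR (SD, n = 2 each).

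Neither Irgm2 nor Igtp passed the test in any of the 3 comparisons (limma across all genes, Benjamini-Hochberg adjustment). Of the 4 members, 3 had the mean of 0.1 RPM that a test needed. In KO against WT, 20.2% of the 22289 genes passed, and 23.6% of the 3463 genes with a mean of 2 to 10 RPM, the range that holds both relatives. There the difference in log2(RPM + 0.1) was 0.25 for Irgm2 (SE 0.21, adjusted p = 0.455) and 0.16 for Igtp (SE 0.19, adjusted p = 0.616). Their 95% intervals ended at 0.69 and 0.55, that is at 1.61 and 1.47 times the WT level, against 12.2 times for the difference of Irgm1 on the same scale. The same interval ran down to -0.18 for Irgm2 and -0.23 for Igtp, so a small change in either direction was not detectable here.

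In del-cIDR against WT, 8.10% of all genes passed, and 8.72% of those with a mean of 2 to 10 RPM. Irgm2 differed by 0.12 (SE 0.21, limma adjusted p = 0.801; interval -0.31 to 0.56) and Igtp by -0.24 (SE 0.19, adjusted p = 0.506; interval -0.63 to 0.15). Irgm1 itself, at -0.68 on 20 reads against 7, had overlapping libraries in these genotypes.

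Between the altered genotypes, del-cIDR against KO, 29.6% of all genes passed, and 34.9% of those with a mean of 2 to 10 RPM. Irgm2 differed by -0.13 (SE 0.21, limma adjusted p = 0.697; interval -0.56 to 0.30). Igtp had the nearest to a call, at -0.40 (SE 0.19, adjusted p = 0.117; interval -0.79 to -0.01), and its mean in del-cIDR was 0.755 times that in KO. Its unadjusted p was 0.0441, the 1 case under 0.05 among the 6 tests of a relative. The direction was that of Irgm1, but the size was far below the -4.28 of Irgm1, and 77.0% of all genes stood higher than Igtp in this comparison. edgeR and DESeq2 on the recovered reads called neither relative in any comparison. At an unadjusted p under 0.05, edgeR had 1 such case and DESeq2 had 0.

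**Figure D2:**
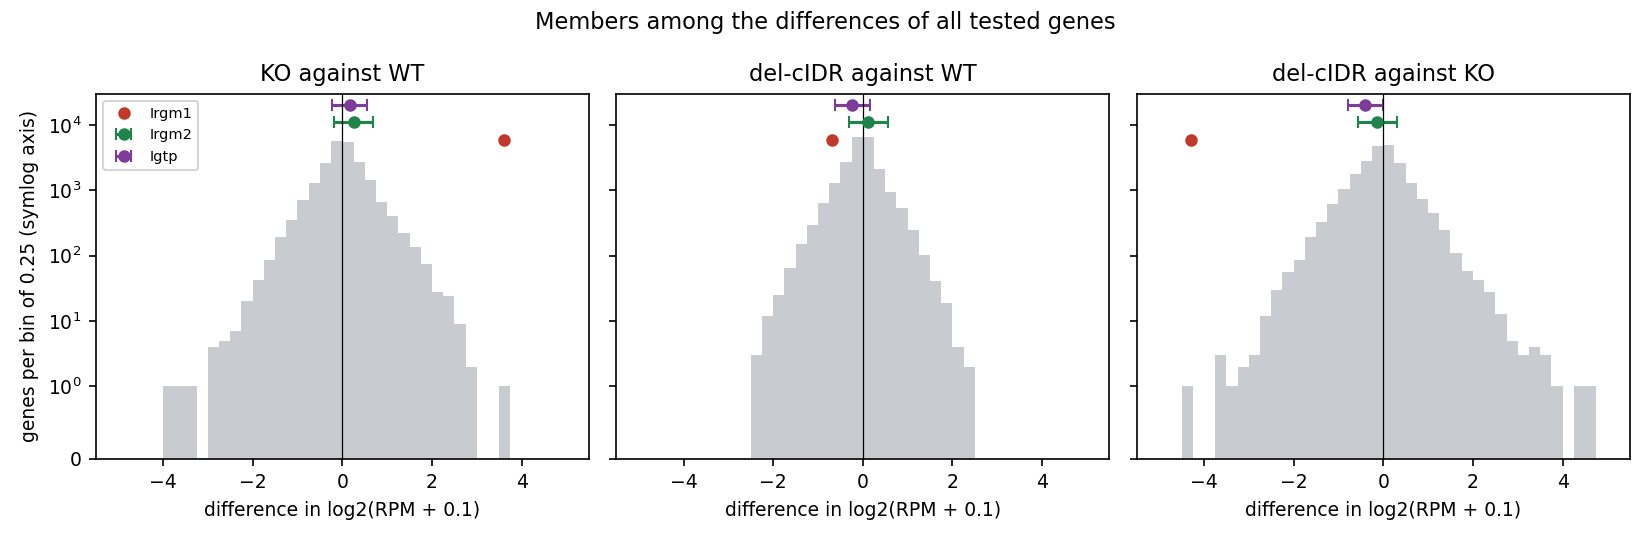
Differences in log2(RPM + 0.1) between genotypes for the 22289 genes tested, as counts of genes in bins of 0.25 on a symmetric log axis, with Irgm1, Irgm2 and Igtp as points at arbitrary height. Bars on Irgm2 and Igtp are 95% intervals of the limma fit, and Irgm1, chosen for its values, has none. Irgm1 lies at the edge in KO against WT (3.61) and in del-cIDR against KO (-4.28), and the relatives lie within the bulk of genes.

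The ratio of reads within a library does not depend on how libraries are scaled. Per 100 reads of Igtp and Irgm2 together, Irgm1 had 49.5 and 43.5 reads in the KO libraries, 2.11 and 4.86 in the WT libraries, and 0.784 and 3.05 in those of del-cIDR. The KO libraries lay far above the other 4, and any 1 factor per library leaves these ratios as they are. Irgm1 was chosen for its high values in KO, so this gap restates those values and is no test. The pair together stood at 9.02 and 10.8 RPM in the KO libraries, 7.57 and 9.67 in the WT libraries, and 8.23 in each del-cIDR library.

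**Figure D3:**
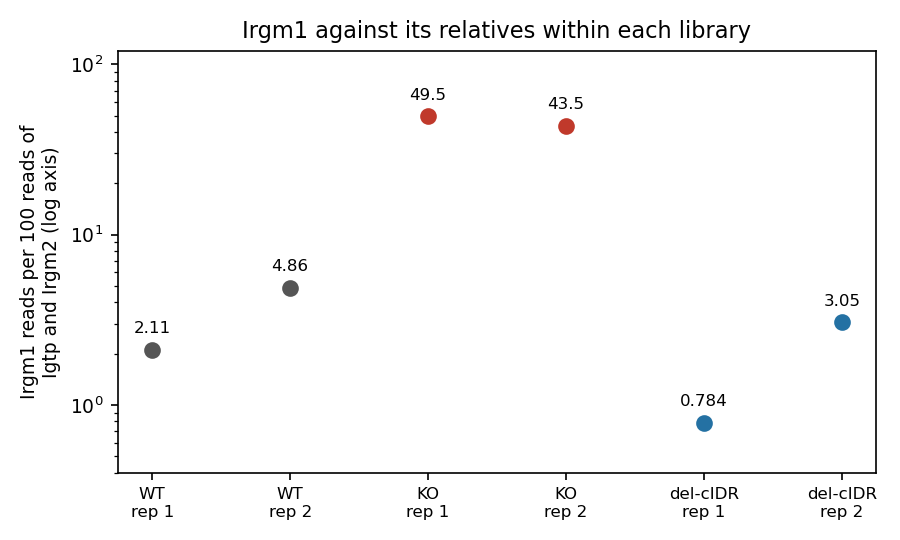
Irgm1 reads per 100 reads of Igtp and Irgm2 together in each input library, on a log axis, for WT (grey), KO (red) and del-cIDR (blue). Each point is 1 library. The KO libraries are at 49.5 and 43.5, and the other 4 lie between 0.784 and 4.86. Irgm1 was chosen for its values in KO, so the ratios are a description.

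Irgm2 and Igtp belong to the same gene family and lie next to each other on chromosome 11, with 0 genes listed between them in RefSeq (GRCm38.p6). Their transcripts were not aligned here. Any reads that match both could have been given to either or dropped, so how far their separate values are affected is not known. Igtp took 56.8% and 48.3% of the pair's reads in the WT libraries, 52.0% and 50.0% in the KO libraries, and 41.2% and 51.2% in those of del-cIDR, a share that overlapped between genotypes. Gm12250 lies on the other side of Igtp, and Gm5431 lies next to Irgm1 elsewhere on chromosome 11. RefSeq lists no gene that overlaps any of the 4 members.

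Iigp1, the effector, was at the limit of detection in all genotypes. It had 2 reads in KO replicate 2 and 0 in the other 5 libraries, and it did not reach the mean of 0.1 RPM needed for a test. The 2 reads amount to 0.0606 RPM. For a count of 0, the exact Poisson 95% interval ended at 0.101 RPM in KO replicate 1, the deepest library, and at 0.185 RPM in del-cIDR replicate 2, the shallowest. The one-sided limit of 3 reads lies lower, at 0.0818 and 0.151 RPM. Whether Iigp1 moved with Irgm1 was not detectable at this depth.

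On the deposited scale, in which the authors multiplied each library by 1 factor, the differences of all genes were shifted, and those of the relatives with them. The median of all genes tested there was -0.87 on the log2(value + 1) scale in KO against WT, -0.23 in del-cIDR against WT and 0.62 in del-cIDR against KO. In KO against WT, Irgm2 was at -0.66 (limma adjusted p = 0.381) and Igtp at -0.76 (adjusted p = 0.315), below 0 and near the median of all genes. Irgm1 was at 3.07, on the other side of 0. In deposited values, the KO libraries had 202 and 155 for Irgm1, the WT libraries 11.9 and 33.8, and the del-cIDR libraries 5.55 and 11.6. For Igtp the KO libraries had 212 and 178, the WT libraries 322 and 336, and the del-cIDR libraries 291 and 195. For Irgm2 the KO libraries had 196 and 178, the WT libraries 244 and 359, and the del-cIDR libraries 416 and 186. How many of all genes have separate libraries on this scale was not counted. The direction of both relatives in KO against WT and in del-cIDR against KO therefore turns with the scaling, as does that of Irgm2 in del-cIDR against WT (-0.09), while Irgm1 kept its direction in all 3 comparisons.

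Irgm2 and Igtp were not among the genes most like Irgm1 across libraries. Likeness was measured as the root mean square difference, over the 6 libraries, of log2(RPM + 0.1) after each gene's own mean was taken off. Of the 22288 other genes tested, Igtp ranked 4424 (distance 1.78) and Irgm2 ranked 6645 (distance 1.85). That is, 19.8% of genes lay nearer than Igtp and 29.8% nearer than Irgm2. The distance is built on the values that chose Irgm1, so these ranks are a description and no test of the relatives. The nearest was ENSMUSG00000028023 (distance 0.64), followed by ENSMUSG00000000184 (0.69), which no table given here names. ENSMUSG00000028023 had 456 and 430 reads in the KO libraries, 53 and 41 in the WT libraries, and 22 and 27 in those of del-cIDR. ENSMUSG00000000184 had 274 and 311 reads in the KO libraries, 35 and 29 in the WT libraries, and 18 and 22 in those of del-cIDR. Both were high in the KO libraries and low in the other 4, as Irgm1 was. They were picked for this likeness, so it is no test of them, and their place moves with the setting. With a pseudocount of 1 RPM they ranked 5 and 2, and on the deposited scale 10 and 11. Igtp and Irgm2 ranked between 3619 and 6901 under these settings.

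**Figure D4:**
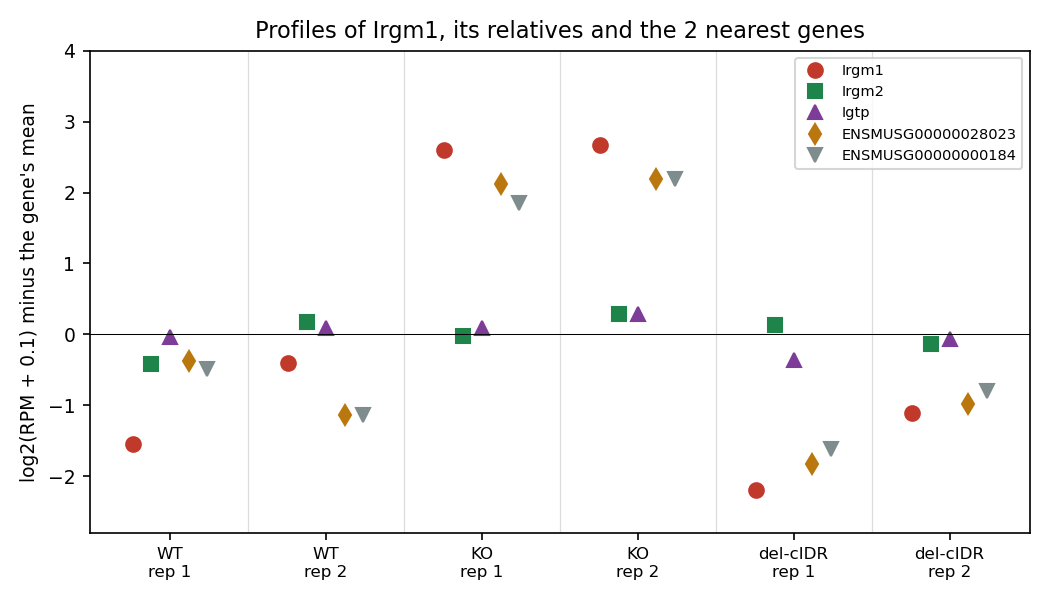
Log2(RPM + 0.1) of 5 genes in each of the 6 input libraries, less the gene's own mean over the libraries; each point is 1 gene in 1 library. Irgm1 and its nearest genes, ENSMUSG00000028023 and ENSMUSG00000000184, lie above 0 in both KO libraries and below it in the other 4, and Irgm2 and Igtp stay near 0 in all.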

How the data were processed

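The mRNA table holds 56941 genes in the 6 input libraries. Per the labels' protocols, polyA RNA was fragmented and made into libraries with a stranded kit. GRCm39, HISAT2, featureCounts, fastp, bedtools, Picard, SAMtools and MACS2 are listed in the submitters' processing notes, with no roles. No source used here says whether counting used strand.

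The deposited values of 5 libraries are a signal, in which the authors multiplied the reads of a library by 1 factor. This was read from the values: 100% were whole multiples of the smallest value above 0 (tolerance 0.001 reads). The deposited values of KO replicate 2 are counts, with a factor of 1. Reads were recovered by dividing by the factor (1 to 2.98) and expressed per 1000000 reads in genes (RPM).

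Values of log2(RPM + 0.1) were fitted with limma 3.58.1 (R 4.3.3) for the 22289 genes with a mean of at least 0.1 RPM. All 3 genotypes were in 1 fit, with a variance trend and Benjamini-Hochberg adjustment at 0.05. This scale understates changes of low genes. edgeR 4.0.16, DESeq2 1.42.0, the deposited scaling, other pseudocounts and filters, a replicate block and leaving out each library were alternatives. The fit was tested on simulated data with unchanged and strongly changed genes only. That test does not bear on small changes of Irgm2 or Igtp. The named genes were the 4 members and the 2 genes nearest to Irgm1 in profile.

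The members and lists were chosen with earlier results of these data known. No table given pairs gene identifiers with symbols (0 matched), so the identifiers of the members came with their list. For the same reason, lists of other immunity-related GTPase genes and of guanylate-binding protein genes were not analysed here. Nor were lists of interferon, antigen presentation, autophagy and cell type marker genes, or Alkbh5 itself. The relatives tested, Irgm2 and Igtp, are therefore only part of the family. Peaks of the m6A table have positions without genes, and m6A at the members was not analysed here. Promoters came from RefSeq tables (GRCm38.p6), searched with Python 3.11.15 and Biopython 1.88. Poisson intervals cover counting error only. Intervals and p-values of the limma fit rest on the spread between libraries, which the fit draws in large part from all genes tested.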

Additional observations from a re-analysis of the deposited data

How the results depend on the processing

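Irgm2 and Igtp passed the test in 0 of their 6 fits (limma) and in 0 of 108 fits under the 18 alternatives per comparison. Over these the lowest adjusted p was 0.0602, for Igtp in del-cIDR against KO without del-cIDR replicate 2. Their direction turned in 15 of the 108. With the deposited scaling, KO against WT gave -0.66 for Irgm2 and -0.76 for Igtp, or -0.69 and -0.75 with edgeR. On that scaling Irgm2 in del-cIDR against WT was at -0.090, or -0.012 with edgeR. In del-cIDR against KO, Irgm2 was at 0.57 and Igtp at 0.29, or 0.68 and 0.32 with edgeR. Leaving out each library gave Irgm2 values from -0.046 to 0.55 in KO against WT, from -0.18 to 0.42 in del-cIDR against WT and from -0.28 to 0.024 in del-cIDR against KO. A genotype left with 1 library was taken to vary as much as the others.

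Irgm1 kept its direction throughout, from 2.10 (pseudocount of 1 RPM) to 4.17 (without WT replicate 2) in KO against WT. In del-cIDR against KO it ranged from -5.00 (DESeq2) to -2.27 (pseudocount of 1 RPM), and in del-cIDR against WT from -1.42 (edgeR with the deposited scaling) to -0.11 (without WT replicate 2). With no filter, Iigp1 was at 0.34 in KO against WT (limma adjusted p = 0.625). That value rests on the 2 reads of KO replicate 2 alone, so the fit could not decide whether Iigp1 changed.

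The count of all genes called was 4507, 1806 and 6605 in KO against WT, del-cIDR against WT and del-cIDR against KO. It was 519 (7 higher, 512 lower), 6 and 470 (441 higher, 29 lower) with the deposited scaling, 705, 0 and 737 with edgeR on it, and 942, 0 and 3020 without the variance trend. In del-cIDR against WT it was 1142 with no filter and 1089 with only those genotypes, and centring on library medians turned 683 higher and 1123 lower into 994 and 911. Leaving out each library gave 2247 to 5300, 781 to 2186 and 3999 to 6589. The replicate block gave 4342, 1652 and 6422. The labels do not say that the numbers pair libraries, and same-numbered libraries deviated together with correlations of -0.10, -0.10 and 0.09 over 14851 genes. The block changed no call of Irgm2 or Igtp. The alternatives for m6A were not run, since no peak was assigned to a member.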
